A study of Mus musculus with 5 samples.

Results

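The cells described here are limb mesenchyme cells of the mouse embryo that carry transcripts of at least 2 of the genes *Lhx2*, *Lhx9*, *Mmp11* and *Apela*. They were chosen by a rule on measured transcripts in the forelimb and the hindlimb library. A cell was a member if it had 100 to 9000 detected genes, at most 10% of its UMIs (unique molecular identifiers, 1 per captured transcript) from mitochondrial genes, at least 1 UMI of 2 or more of the 4 marker genes and at least 1 UMI of the mesenchyme genes *Prrx1* or *Pdgfra*. It also had no UMI of *Cdh1*, *Cdh5* or *Myod1*, which mark epithelium, endothelium and muscle. The rule found 1758 members, 843 in the forelimb and 915 in the hindlimb, among 49801 limb cells that passed the limits and 84440 barcodes in the series. They were set against the other 27433 limb cells with a *Prrx1* or *Pdgfra* UMI, called other mesenchyme below.

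The series holds 5 single cell RNA libraries from mice, 3 from the penis at postnatal day 6, 1 from the forelimb and 1 from the hindlimb, with the limbs at embryonic day 15 by the labels. The study's own text is not uniform on the exact age of the limbs. The labels give every library the genotype C57BL/6N and name no treatment, while the study's methods name C57BL/6J mice. By those methods the limbs came from several male embryos, and how these were divided over the libraries is not given in the sources used here. Each limb is 1 library, and every p-value between limb cell classes therefore measures only how alike the difference was in 2 libraries. The limb libraries held 28266 and 25937 barcodes and 156060382 and 162335993 UMIs. They shared 203 barcode sequences, none of which was a member in both.

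*Lhx2* and *Lhx9* encode closely related LIM-homeodomain transcription factors, which in the early limb bud act together beneath the apical ectodermal ridge, where they link fibroblast growth factor, hedgehog and patterning signals. *Mmp11* encodes stromelysin-3, a matrix metalloproteinase made by mesenchymal cells, and *Apela* encodes a small secreted ligand of the apelin receptor. In older limbs the distal mesenchyme shapes the digits, while mesenchyme beneath the skin forms the dermis and answers Wnt ligands.

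In GRCm38, *Lhx2* lies at chr2:38339281-38369733 on the plus strand. *Lhx9* lies at chr1:138825186-138848577, *Mmp11* at chr10:75923222-75936496 and *Apela* at chr8:65028417-65037336, each on the minus strand. The promoters of the 4 marker genes are shown because they name the cells. Those of *Msx2* and *Dach1* are shown because both genes were higher in the members and their windows hold a motif marked below. The windows of *Cadps*, *Tfap2b* and *Msx1*, with larger log2 fold changes than *Dach1*, hold neither motif and are not shown. Each sequence is read 5′ to 3′ on the gene's strand, from 250 bases before to 50 bases after a RefSeq start in GRCm38.p6. Capitals mark TAATTA, the core letters that homeodomain proteins bind, and CTTTGA on either strand (TCAAAG when reversed), the core letters of TCF and LEF proteins. *Lhx2* has 2 such windows, of which 1 is shown.
*Lhx2*, chr2:38339031-38339330: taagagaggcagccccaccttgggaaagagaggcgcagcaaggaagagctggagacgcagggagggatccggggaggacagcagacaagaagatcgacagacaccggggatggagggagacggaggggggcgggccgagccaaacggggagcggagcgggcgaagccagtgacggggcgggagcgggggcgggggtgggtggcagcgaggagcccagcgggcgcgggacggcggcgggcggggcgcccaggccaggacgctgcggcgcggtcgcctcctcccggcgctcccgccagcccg
*Lhx9*, chr1:138842395-138842694: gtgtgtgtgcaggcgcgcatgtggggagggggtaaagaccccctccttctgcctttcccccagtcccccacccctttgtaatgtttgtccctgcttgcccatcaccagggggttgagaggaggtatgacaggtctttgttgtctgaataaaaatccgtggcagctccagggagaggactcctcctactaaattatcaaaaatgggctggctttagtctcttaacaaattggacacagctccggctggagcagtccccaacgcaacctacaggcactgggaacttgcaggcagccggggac
*Mmp11*, chr10:75932453-75932752: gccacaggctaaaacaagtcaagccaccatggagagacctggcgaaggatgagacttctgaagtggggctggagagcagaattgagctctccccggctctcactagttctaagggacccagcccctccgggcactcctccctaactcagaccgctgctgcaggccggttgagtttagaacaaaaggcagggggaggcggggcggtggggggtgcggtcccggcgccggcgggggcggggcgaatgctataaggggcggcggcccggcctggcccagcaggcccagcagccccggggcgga
*Apela*, chr8:65037287-65037586: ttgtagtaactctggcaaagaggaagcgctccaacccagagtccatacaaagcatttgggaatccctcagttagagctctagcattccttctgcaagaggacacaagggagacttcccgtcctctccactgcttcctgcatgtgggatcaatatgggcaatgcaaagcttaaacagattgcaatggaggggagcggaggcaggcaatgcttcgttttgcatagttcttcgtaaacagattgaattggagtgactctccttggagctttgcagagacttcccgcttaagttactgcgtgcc
*Msx2*, chr13:53472731-53473030: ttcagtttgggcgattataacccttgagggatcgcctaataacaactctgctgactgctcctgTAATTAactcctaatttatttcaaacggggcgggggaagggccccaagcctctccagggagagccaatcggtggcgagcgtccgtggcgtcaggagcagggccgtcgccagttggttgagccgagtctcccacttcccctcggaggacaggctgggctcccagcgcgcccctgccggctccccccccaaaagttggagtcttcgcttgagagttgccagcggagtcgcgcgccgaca
*Dach1*, chr14:98169716-98170015: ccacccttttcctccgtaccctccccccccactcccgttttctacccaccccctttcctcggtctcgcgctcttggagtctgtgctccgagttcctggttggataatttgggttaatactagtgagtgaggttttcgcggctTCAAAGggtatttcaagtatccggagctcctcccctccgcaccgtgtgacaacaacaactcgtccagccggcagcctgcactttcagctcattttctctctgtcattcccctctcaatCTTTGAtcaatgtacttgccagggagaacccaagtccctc

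Neither motif was found in the 5 windows of the 4 marker genes, which says only that these letters are not there. TAATTA occurred in 5.29% and CTTTGA in 16% of all 32851 promoter windows of this length. Of the 15 genes named below as higher in the members, 13 had a window. *Msx2* alone held TAATTA, and *Dach1*, *Kif26b*, *Lef1*, *Prr5l* and *Sgip1* held CTTTGA, each in 1 window. These 13 genes have 19 windows, so TAATTA was in 5.26% and CTTTGA in 26.3% of their windows, 1 and 5 of 19. A match is a description of letters, not a binding site.

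The marker genes were high in the members because the rule asked for them, so their values are a description. *Lhx2* had a UMI in 55.3% of forelimb members and 52.6% of hindlimb members, against 4.09% and 4.14% of other mesenchyme. In CPM (a gene's UMIs over all UMIs of a class, times 1e6), *Lhx2* stood at 86.0 (95% Poisson interval 79.6 to 92.7) and 76.2 CPM (70.6 to 82.0) in members and at 7.37 and 6.77 CPM in other mesenchyme. *Lhx9* was detected in 53.1% and 42.4% of members, *Mmp11* in 64.4% and 76.2%, and *Apela* in 46.0% of the members of each limb. No single marker was therefore detected in all members, and the gene most often met was *Mmp11*. A cell without a UMI of a gene may still hold its transcript, here and in the groups of members below. *Lhx9* stood at 95.2 and 71.1 CPM in members against 9.56 and 8.56 in other mesenchyme. *Mmp11* had 126 and 175 CPM against 27.4 and 33.4, and *Apela* 71.4 and 69.2 CPM against 6.61 and 5.33. *Prrx1*, which the rule asked of both classes in either-or with *Pdgfra*, stood at 480 and 517 CPM in members and 337 and 344 in other mesenchyme.

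Free RNA can give a cell transcripts it did not make, so the markers were also read in limb macrophages, which should lack them. Macrophages here had UMIs of at least 3 macrophage genes and none of *Prrx1*, *Pdgfra* or *Cdh1*. The other non-mesenchyme classes below also had no UMI of *Prrx1* or *Pdgfra*. Cells with free RNA of these genes were thus left out, and the shares may lie below those of all such cells. In the 1262 forelimb and 1174 hindlimb macrophages, with a median of 6477 and 7592 UMIs, *Lhx2* was detected in 0.396% and 0.426%, *Lhx9* in 0% and 0.170%, *Apela* in 0.317% and 0.170% and *Mmp11* in 0.951% and 2.04%. In macrophages each share lay below that of other mesenchyme as well as that of the members. In other classes some markers were met more often and some less often. *Lhx2*, for example, had a UMI in 0.248% of forelimb endothelial cells and 0.124% of hindlimb red blood cells. *Apela* had a UMI in 3.19% of 94 forelimb mural cells and 3.12% of 96 hindlimb glia, close to the 3.69% and 3.15% of other mesenchyme in the same limbs, and *Mmp11* was met in 10.4% of hindlimb glia against 15.1%. How much of the marker UMIs of other mesenchyme is background was not tested. The shares in members, which the rule set, lay above those of every other class. The members had a median of 6207 and 7057 UMIs against 5538 and 6146.5 in other mesenchyme. A rule that asks for several transcripts takes more deep cells, and members made up 4.21% of the lowest depth quartile of forelimb mesenchyme and 7.85% of the highest, with 4.26% and 9.14% in the hindlimb.

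The 4 markers were not met together evenly. The most frequent combination was *Mmp11* with *Apela* and neither LIM gene, in 172 forelimb members (20.4%) and 260 hindlimb members (28.4%). *Lhx2* with *Lhx9* and neither of the others came in 156 (18.5%) and 121 members (13.2%). The pair *Lhx2* and *Mmp11* alone came in 133 and 201 members, and all 4 genes were met in 17 and 22. *Lhx2* or *Lhx9* was detected in 79.6% of forelimb and 71.6% of hindlimb members. Both were met in only 243 of 843 forelimb and 214 of 915 hindlimb members. The name *Lhx2* and *Lhx9* mesenchyme thus fits most members by at least 1 of its genes, and a minority by both. In 42.7% of forelimb and 37.0% of hindlimb members, membership rested on just 2 marker UMIs.

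**Figure D1:**
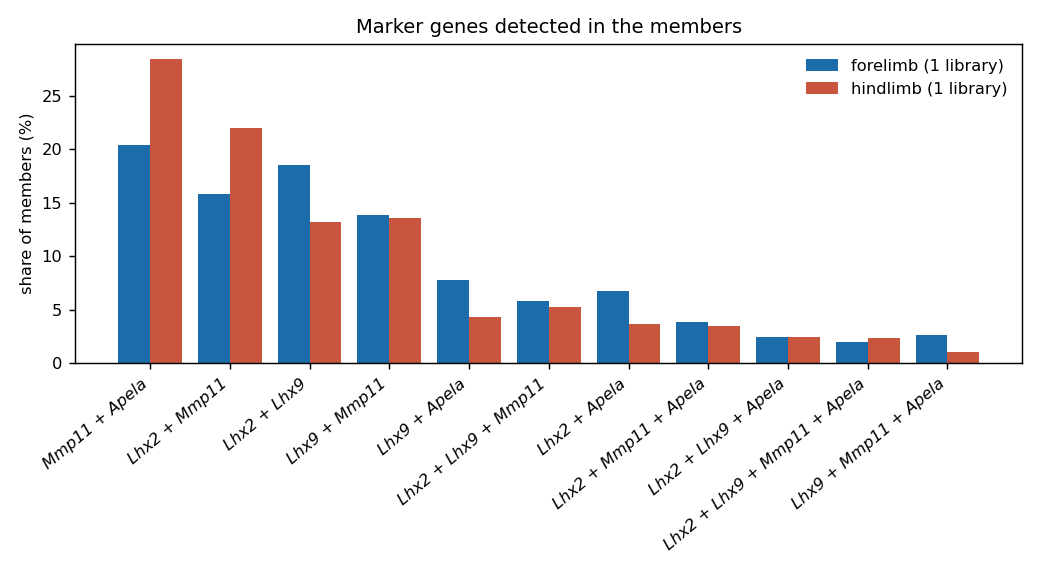
Share of members (%, vertical axis) with each combination of the 4 marker genes, as bars for the forelimb library (843 members) and the hindlimb library (915 members). *Mmp11* with *Apela* was the most frequent combination in both limbs, and all 4 genes together came in 17 and 22 members.

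Pairing was read over all mesenchyme cells without a *Cdh1*, *Cdh5* or *Myod1* UMI, members and others together, and *Lhx9* was met more often in cells with *Lhx2* than in cells without. *Lhx9* was detected in 24.5% of forelimb cells with *Lhx2* and in 6.25% of those without it, and in the hindlimb in 21.8% and 5.94%. *Mmp11* was detected in 19.3% of forelimb cells with *Lhx9* against 15.2% of those without, and in 21.3% against 18.8% in the hindlimb. With *Lhx2* it was met more often, in 23.4% against 14.9% of forelimb cells and 30.8% against 18.0% of hindlimb cells. After every cell was thinned to 2000 UMIs, which removes differences in depth, *Lhx9* was met 3.91 and 2.28 times as often in cells with *Lhx2* as in cells without. For *Mmp11* the ratio at that depth was 1.34 and 2.14 in cells with *Lhx2*, 0.878 and 0.898 in cells with *Lhx9*, and 2.17 and 1.84 in cells with *Apela*. In this single random draw the hindlimb ratio of *Lhx2* with *Mmp11* was close to that of *Lhx2* with *Lhx9*. Unthinned, the hindlimb ratio in cells with *Lhx2* was 3.66 for *Lhx9* and 1.71 for *Mmp11*. Among hindlimb cells with at least 5000 UMIs it was 4.36 and 1.71. These shares describe cells of 1 library per limb and carry no test.

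The threshold of the rule lay between cells with 1 and cells with 2 marker genes. Just inside it, 701 forelimb and 780 hindlimb members with 2 marker genes had 78.9 and 69.7 CPM of *Lhx2*. Just outside it, 3263 and 3312 cells with 1 marker gene had 27.9 and 22.4 CPM. *Msx1*, a homeobox gene of distal limb mesenchyme that the rule did not use, stood at 19.2, 47.5 and 133 CPM in forelimb cells with 0, 1 and 2 markers and at 20.03, 43.4 and 84.9 CPM in hindlimb cells. The counting intervals of these steps did not overlap in either limb. A UMI of *Hoxa13* or *Hoxd13*, which pattern the hand and foot, was found in 18.0%, 30.6% and 49.4% of forelimb cells with 0, 1 and 2 markers and in 23.0%, 35.2% and 49.9% of hindlimb cells. The 15 genes named next as higher in the members had increasing levels over 0, 1 and 2 markers in both libraries, an order partly set by choosing them for being high in cells with 2 or more markers. Of the 10 genes named as lower, 6 in the forelimb and 8 in the hindlimb had decreasing levels over these steps.

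Next, the members were compared with other mesenchyme across 20367 genes, with UMI counts summed per library and class. edgeR's quasi-likelihood test with the library as a block called 172 genes higher in the members (0.845% of those tested) and 419 lower (2.06%), at an adjusted p under 0.01 and a log2 fold change beyond 1. The median log2 fold change of all tested genes was -0.018. Genes of distal limb patterning and of the Wnt pathway were among the higher genes, and muscle, endothelial, connective tissue and hemoglobin genes among the lower ones. Of the 591 called genes, 57 are gene models without a plain symbol and are not named.

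*Msx2*, a homeobox gene of distal mesenchyme, led the higher genes, with 25 CPM in forelimb members and 25.2 in hindlimb members against 4.55 and 4.08 in other mesenchyme (log2 fold change 2.51, SE 0.13, adjusted p = 2.07e-08). Its relative *Msx1* had 132 and 95.3 CPM against 26.2 and 26.4 (2.06, SE 0.09). *Tfap2b*, an AP-2 transcription factor gene, had 65.7 and 66.8 CPM against 16.5 and 14.5 (2.06, SE 0.08). *Dach1*, a transcriptional cofactor gene of distal limb mesenchyme, had 330 and 405 CPM against 86.8 and 96.2 (1.96, SE 0.05). In each of these genes both members' values lay above both values of other mesenchyme. Genes were named only if their direction was the same in both limbs, so this agreement was partly set by the choice.

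*Lef1*, the nuclear partner of beta-catenin in Wnt signalling, rose from 33.3 and 34.9 CPM in other mesenchyme to 110 and 105 in members (log2 fold change 1.62, SE 0.06). *Apcdd1*, a cell-surface Wnt inhibitor, rose from 52.6 and 45.0 CPM to 135 and 140 (1.46, SE 0.07). *Cadps*, which primes dense-core vesicles for release, had 126 and 195 CPM in members against 29.9 and 40.2 (2.14, SE 0.06). The Iroquois homeobox genes *Irx3* and *Irx5*, known from the proximal and anterior limb, were higher by 1.59 (SE 0.11) and 1.48 (SE 0.06). *Rgs6* (1.62), *Sgip1* (1.604), *Kif26b* (1.6), *Prr5l* (1.501), *Casz1* (1.46) and *Cpxm2* (1.45) complete the 15 genes with the largest log2 fold changes among those above 20 CPM. The members of both limbs thus carried homeobox genes of the distal limb and Iroquois genes together when summed, and the members are split by marker further on.

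**Figure D2:**
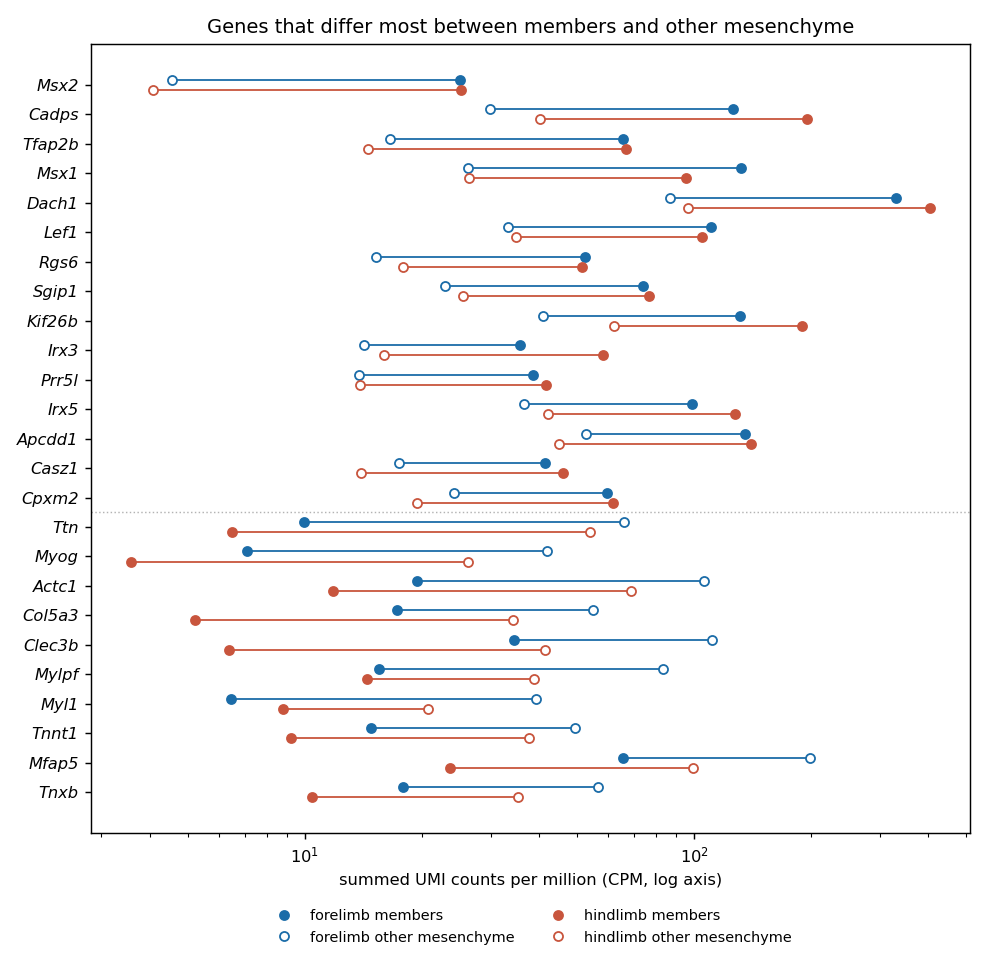
Level in CPM (logarithmic horizontal axis) of the 15 genes most higher and the 10 most lower in members, for members (filled points) and other mesenchyme (open points) of each limb library, with a dotted line between the higher and lower genes. For *Msx2* the members lay at 25 and 25.2 CPM and other mesenchyme at 4.55 and 4.08, and for *Ttn* the members lay at 9.92 and 6.51 CPM and other mesenchyme at 66.1 and 53.9.

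Of 19 tested genes of distal limb patterning, 8 were higher in members and 0 lower, with a median log2 fold change of 0.919. Beside *Msx1*, *Msx2* and *Tfap2b* these were *Hoxa13* (37.8 and 39.4 CPM against 13.0 and 19.98, log2 fold change 1.20), *Hoxd13* (92.3 and 97.8 CPM against 38.9 and 43.4, 1.17), *Tfap2a* (2.06), *Dlx6* (1.29) and *Cyp26b1*, which degrades retinoic acid in distal mesenchyme (68.7 and 48.1 CPM against 25.9 and 26.9, 1.09). *Wnt5a*, a ligand of the distal limb, stood at 212 and 206 CPM against 114 and 106, a log2 fold change of 0.89 that did not reach the limit of 1. Of 16 genes of proximal and middle limb patterning, *Irx3* and *Irx5* alone were called, and their list had a median of 0.002.

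Among 39 tested Wnt genes, 8 were higher and 1 was lower, with a median log2 fold change of 0.379. Those higher were the receptor gene *Fzd10* (1.40), the antagonist genes *Dkk1* (20.2 and 19.0 CPM against 8.28 and 6.19, 1.42) and *Wif1* (78.7 and 59.6 CPM against 38.1 and 21.9, 1.20), *Lef1*, *Apcdd1*, and the feedback genes *Axin2* (70.5 and 79.8 CPM against 27.7 and 31.0, 1.32), *Nkd1* (1.20) and *Nkd2* (1.43). These include genes that Wnt signalling itself is known to induce. *Wnt2*, a ligand gene, was lower, with 8.63 and 6.08 CPM in members against 17.1 and 13.5 (-1.10).

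No gene of the other signalling lists for FGF (19 tested), hedgehog (12) or BMP (25) passed both limits, with medians of 0.144, 0.278 and 0.159. At an adjusted p under 0.01 alone, which called 7.01% of all genes higher and 6.98% lower, 6 FGF genes were higher and 2 lower, 7 hedgehog genes were higher and none was lower, and 8 BMP genes were higher and 3 lower. The retinoic acid list had 3 genes higher and 3 lower of 17. *Stra6*, a receptor for retinol uptake, and *Rdh10*, which starts retinoic acid synthesis, were higher (1.18 and 1.02), as was *Cyp26b1*. The synthesis genes *Aldh1a1* (-2.44) and *Aldh1a3* (-1.34) and the carrier gene *Rbp4* (-1.15) were lower. *Aldh1a1* was at a low level, with 0.644 and 0.109 CPM in members. *Aplnr*, the receptor gene of the *Apela* ligand, was lower, at 0.515 and 0.326 CPM in members against 3.76 and 3.31 in other mesenchyme (-3.12), a class that includes cells with a UMI of the endothelial gene *Cdh5*. Without the cells that had a *Cdh1*, *Cdh5* or *Myod1* UMI, other mesenchyme stood at 0.549 and 0.438 CPM of *Aplnr*, and the log2 fold change was -0.29 (adjusted p = 0.767 by edgeR), so its call was lost. Of 24 metalloproteinase and inhibitor genes, *Mmp9* (-1.33, at 1.42 and 0.977 CPM in members) and *Mmp13* were lower. *Mmp13* had no UMI in the members of either limb. Of 17 LIM-homeodomain genes and cofactors other than the markers, *Lmx1a* (-1.40, at 1.16 and 2.06 CPM in members) and *Lmo2* (-1.26) were lower and none was higher.

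Lists of differentiated cells gave few higher genes. *Col2a1*, the cartilage collagen gene, had 230 and 344 CPM in members against 451 and 532, and 0 of 10 chondrocyte genes passed both limits, with a median of -0.671 and 8 of the 10 lower at an adjusted p under 0.01 alone. Of 13 dermal fibroblast genes, *Dpt*, *Ebf2*, *Pi16* and *Clec3b* were lower and none was higher. Of 10 tendon genes, *Kera* and *Htra3* were lower, and of 7 osteoblast genes, *Spp1* and *Ibsp*. No gene of mitosis, DNA replication, the T-box, joint or dermal condensate lists passed both limits, although 10 of 15 mitosis genes were higher at an adjusted p under 0.01 alone, among them *Top2a* (335 and 325 CPM against 232 and 236, 0.46). The mesenchyme, dissociation stress, hypoxia and macrophage lists held no called gene either, and the ridge and ectoderm list held 1, *Dlx2*.

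**Figure D3:**
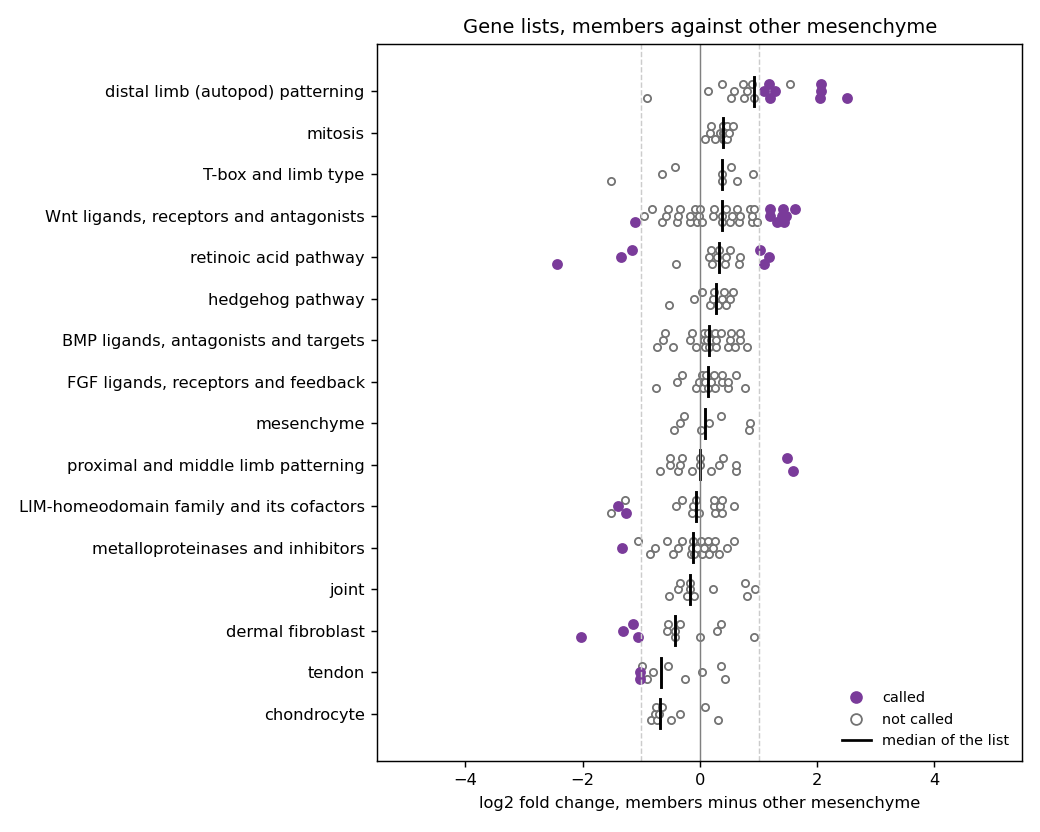
Log2 fold change of members minus other mesenchyme (horizontal axis) for each gene of 16 of the lists (vertical axis), with filled points for called genes, open points for the rest and a black bar at each list's median. The distal limb list had its median at 0.919 and the chondrocyte list at -0.671, dashed lines stand at the limits of 1 and -1, and *Mmp13*, with no UMI in the members, lies outside the axis.

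The lower genes depended on which cells the members were set against. Other mesenchyme included cells with a UMI of *Cdh1*, *Cdh5* or *Myod1*, which the rule took out of the members. *Ttn*, the giant sarcomere protein gene, had 9.92 and 6.51 CPM in members against 66.1 and 53.9 (log2 fold change -2.92, SE 0.10), and 9 of 10 muscle genes were lower, among them *Myog*, *Actc1* and *Tnnt1*. When the cells with such a UMI were left out of other mesenchyme, *Ttn* stood at -0.872, *Myog* at -0.68, *Actc1* at -0.67 and *Tnnt1* at -0.69, and none of these passed both limits. The test then called 154 genes higher (0.765%) and 265 lower (1.32%), and 145 of the 172 higher and 240 of the 419 lower genes remained among them. Of other cell types, 5 of 10 endothelial, 6 of 11 epidermal and 1 of 7 glial genes (*Erbb3*) were lower in the members against all other mesenchyme, and of 7 mural genes *Kcnj8* and *Abcc9* were lower and *Myh11* was higher. After that step all 6 epidermal genes lost their call, as did the endothelial genes *Emcn*, *Cd93*, *Esam* and *Cldn5*. *Ctla2a* (-1.74) alone of the endothelial genes and *Des* (-1.42) alone of the 9 muscle genes stayed lower. The muscle genes *Mylpf* (-1.99) and *Myl1* (-1.93), among the 10 most lower, were not in that list. After the same step *Mylpf* (-1.02) stayed called lower and *Myl1* (-0.86) did not. *Cd93*, called lower at -1.77, then had a log2 fold change of 1.26 without a call. Of the list genes given above, *Lmo2* (-0.82), *Erbb3* (-0.66), *Mmp9* (-1.35), *Dlx6* (1.16) and *Rdh10* (0.98) no longer passed both limits either.

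A few genes of matrix and fibroblasts, named as among the 10 most lower, were lower against either set of cells. *Clec3b*, a fibroblast gene, had 34.5 and 6.402 CPM in members against 111 and 41.3 (log2 fold change -2.03, and -2.12 without the cells with such a UMI). *Col5a3* (-2.09 and -2.17), *Mfap5* (-1.83 and -1.91) and *Tnxb* (-1.74 and -1.83), which encode matrix proteins, kept their values in the same way. Hemoglobin transcripts also moved with membership. The summed level of 7 red blood cell genes was 4567 and 6791 CPM in members against 12290 and 13440 in other mesenchyme, 6 of the 7 genes were lower, and the part of this in the other differences was not tested.

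Few cells of either class carried several endothelial, muscle or mural genes, while many carried cartilage genes. At least 3 endothelial genes were detected in 3.32% and 4.92% of members against 3.21% and 2.64% of other mesenchyme, at least 3 muscle genes in 2.49% and 1.09% against 4.18% and 2.97%, and at least 3 mural genes in 4.63% and 3.497% against 3.79% and 3.12%. At least 3 chondrocyte genes were detected in 29.2% and 32.35% of members against 24% and 32.35% of other mesenchyme. The summed macrophage level was 118 CPM in the members of each limb against 191 and 156 CPM. The part of these cells in the differences was not tested. No doublet caller was run, and with cells above the 95th percentile of UMIs left out the test called 194 genes higher and 397 lower. Of the named and list genes called for all members, 5 of 30 higher and 21 of 52 lower genes then lost their call. Among them were *Cyp26b1*, *Dlx6*, *Rdh10*, *Dlx2*, *Myh11*, *Aplnr*, *Lmx1a*, *Lmo2*, *Mmp9* and all 6 red blood cell genes. Among the *Hoxa13* or *Hoxd13* cells described next, none of 22 higher and 16 of 32 lower genes did.

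Distal cells were then compared with distal cells, by keeping in both classes only cells with a UMI of *Hoxa13* or *Hoxd13*. This left 435 forelimb and 480 hindlimb members, 51.6% and 52.5% of all members, and 2985 and 3498 cells of other mesenchyme, 21.2% and 26.2% of that class. Among 16899 genes tested, edgeR called 68 higher (0.402%) and 150 lower (0.888%). Of the 163 higher genes of the wider comparison that were tested here, 60 were called again.

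*Cadps* led this comparison, with 130 and 171 CPM in members against 38.8 and 40.9 (log2 fold change 1.88, SE 0.08), followed by *Msx2* (34.3 and 34.1 CPM against 10.9 and 9.58, 1.71) and *Nrgn*, which binds calmodulin (21.1 and 33.7 CPM against 8.37 and 8.16, 1.70). *Rgs6* (1.69), *Zfp536* (1.56), *Irx3* (1.42), *Dach1* (1.40), *Tmem132c* (1.39), its opposite-strand gene *Tmem132cos* (1.40) and *Kif26b* (1.37) followed. The counts of the last overlapping pair are uncertain, since the sources used here do not state the strand setting. Of 16 distal limb genes tested, 4 were higher (*Msx1*, *Msx2*, *Tfap2a*, *Tfap2b*) and none was lower, with a median of 0.491. *Hoxa13* and *Hoxd13*, which chose these cells, were not tested, so this count cannot be set against that of the wider comparison, where both were among the higher genes. Of 39 Wnt genes, *Dkk1*, *Wif1*, *Lef1*, *Nkd1*, *Nkd2* and *Apcdd1* were higher and none was lower (median 0.281, all genes -0.0078). *Tbx3*, a T-box repressor gene, had 38.7 and 34.4 CPM against 15.8 and 13.7 (1.28), and *Twist2*, a dermal transcription factor gene, 183 and 212 CPM against 92.7 and 93.7 (1.05). Most of the dermal fibroblast list did not follow *Twist2*. *Clec3b* was lower (-1.07), and the list's median was -0.412 against -0.0078 for all genes. Of the 13 genes, 11 were not called, 1 was higher and 1 was lower, where 0.402% of all genes were called higher and 0.888% lower. Neither the hedgehog nor the FGF nor the BMP list held a called gene here. The tendon genes *Tnmd*, *Fmod*, *Kera* and *Htra3* were lower, as were *Ttn* (-2.98), *Myog* (-2.72), *Actc1* (-2.60), *Myl1* (-2.10) and the mast cell protease gene *Cma1* (-2.08). When cells with a *Cdh1*, *Cdh5* or *Myod1* UMI were left out of other mesenchyme, 81 of the 150 lower and 60 of the 68 higher genes remained called. *Ttn* (-0.835), *Myog* (-0.71), *Actc1* (-0.58) and *Myl1* (-0.58) lost their calls, while the 4 tendon genes, from *Fmod* (-1.09) to *Tnmd* (-1.89), and *Cma1* (-1.99) kept theirs.

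Members in which only 1 of the marker pairs was detected differed by that pair. The other 515 forelimb and 534 hindlimb members, with at least 1 gene of each pair, are called mixed and were in neither group. Members with *Lhx2* and *Lhx9* alone (156 and 121 cells, median 5232 and 6378 UMIs) were compared with members with *Mmp11* and *Apela* alone (172 and 260 cells, median 6097 and 7336.5 UMIs), a comparison chosen after their levels had been seen, so its calls are a description. Of 10599 genes tested, edgeR called 186 higher in the *Lhx2* and *Lhx9* members (1.75%) and 243 higher in the *Mmp11* and *Apela* members (2.29%). Without TMM scaling those counts were 245 and 210. In the first group distal limb genes were higher, and in the second proximal limb genes and dermal fibroblast genes.

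*Msx1* had 365 (95% interval 332 to 400) and 325 CPM (292 to 362) in *Lhx2* and *Lhx9* members and 13.9 and 8.40 CPM in *Mmp11* and *Apela* members, a log2 difference of 4.91 (SE 0.20). Other mesenchyme, at 26.2 and 26.4 CPM, lay between them. *Msx2* differed by 4.95, with 74.7 and 69.4 CPM against 2.19 and 2.00, and *Tfap2b* by 3.49, with 133 and 214 CPM against 18.2 and 12.0. *Mecom*, a zinc finger gene, had 1198 and 1447 CPM against 195 and 162 (2.80), and *Sox9*, the master gene of cartilage, 182 and 302 CPM against 35.8 and 31.6 (2.76). The genes *Grm8* (3.86), *Bmp5* (3.62), *Prdm16* (3.51), *Dlx5* (3.40), *Bmper* (3.38), *Dbx2* (3.21), *Nkain2* (2.93), *Plppr1* (2.93), *Pdlim3* (2.82) and *Cytl1* (2.78) followed the same direction. In each of these genes both values of *Lhx2* and *Lhx9* members lay above both values of *Mmp11* and *Apela* members. The choice of named genes had asked for the same direction in both limbs.

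*Crabp1*, a retinoic acid binding protein gene of dermal fibroblasts, had 1233 and 1114 CPM in *Mmp11* and *Apela* members and 160 and 124 CPM in *Lhx2* and *Lhx9* members (log2 difference -3.15, SE 0.12). *Twist2* had 483 and 518 CPM against 61.6 and 53.2 (-3.22, SE 0.15). *Cadps* had 285 and 401 CPM against 26.3 and 9.51 (-4.30), *Irx3* 78.8 and 109 CPM against 9.86 and 6.66 (-3.56), and *Irx5* 173 and 185 CPM against 42.7 and 39.0 (-2.22). *Cadps* and *Irx3* were thus high in the *Mmp11* and *Apela* members, and in the *Lhx2* and *Lhx9* members they lay below other mesenchyme, at 29.9 and 40.2 CPM for *Cadps* and 14.2 and 15.98 CPM for *Irx3*. *Sp5*, a Wnt-induced transcription factor gene, had 42.3 and 25.2 CPM in *Mmp11* and *Apela* members and no UMI in the others, at least 23.7-fold lower against a floor of 3 UMIs over the group. *En1*, which marks ventral limb ectoderm and parts of the dermis, had 27.0 and 41.2 CPM against 0.821 and 0, which is 140 UMIs against 1 (CPM ratio 82.1, 95% exact counting interval 14.5 to 3266). *Grem1*, *Pax1*, *Sfrp5* and *Cyp27a1* had 2 or 3 UMIs in the *Lhx2* and *Lhx9* members against 93 to 132, with CPM ratios of 25.8 (interval 8.64 to 127), 27.3 (7.34 to 228), 22.3 (7.43 to 110) and 18.4 (6.10 to 90.7). The genes *Kcna4* (-4.41), *Ctnna2* (-4.39), *Calb1* (-4.37), *Ass1* (-4.32), *Nrgn* (-4.19), *Casz1* (-4.18), *Acta2* (-4.06) and *Cntn4* (-4.04) differed in the same direction.

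Of 5 mural genes tested, *Rgs5* and *Acta2* were higher in the *Mmp11* and *Apela* members, and of 7 red blood cell genes *Hba-a1*, *Hba-a2* and *Hbb-bt*. The summed mural level was 255 and 453 CPM there against 99.4 and 113 CPM, and all 7 mural genes were detected in both groups. The summed red blood cell level was 5302 and 10640 CPM against 3756 and 4035 CPM. *Acta2*, the smooth muscle actin gene, belongs to the mural list, and the part of mural cells and free hemoglobin RNA in these differences was not tested.

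**Figure D4:**
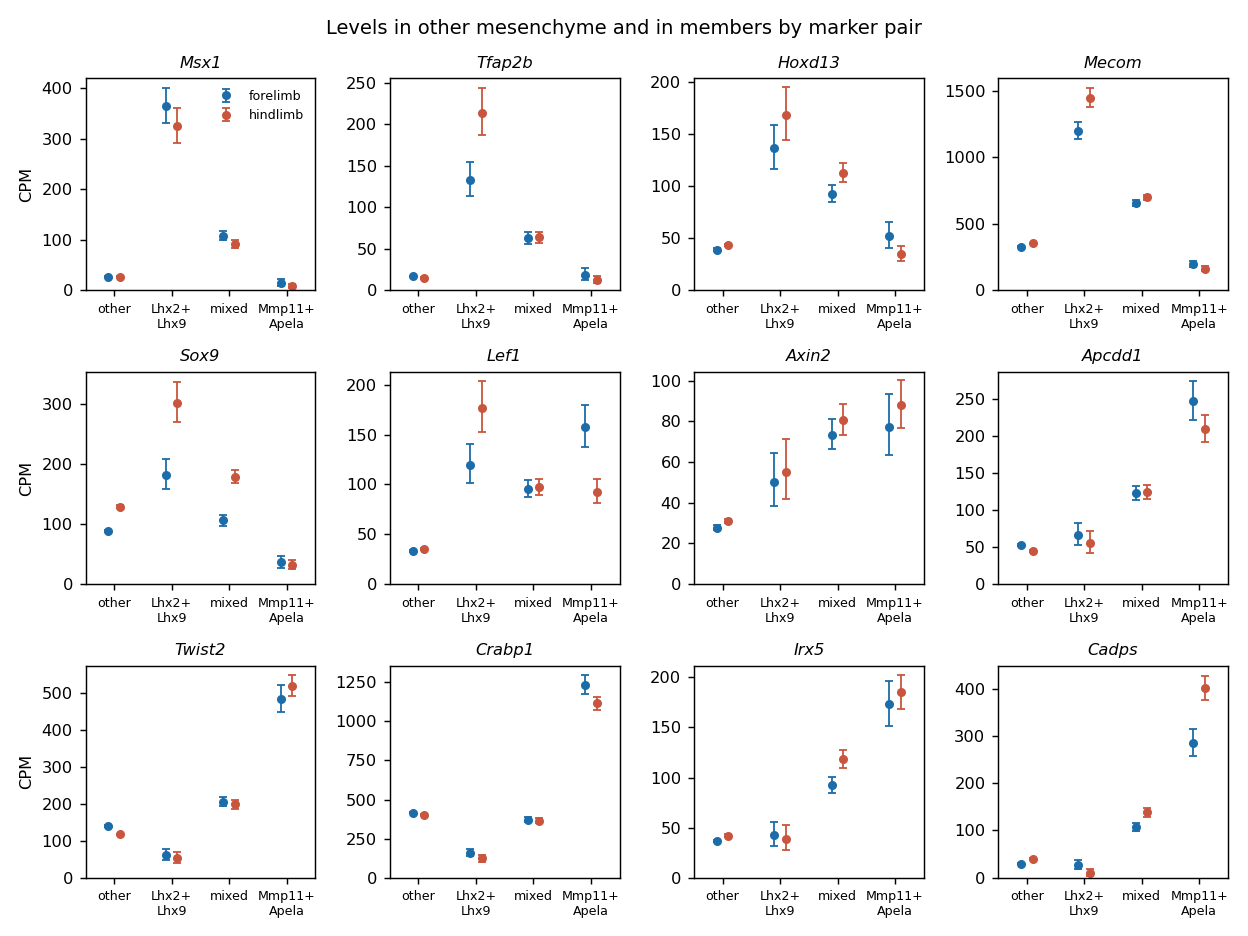
CPM (vertical axes) of 12 genes in other mesenchyme, in members with *Lhx2* and *Lhx9* alone, in mixed members and in members with *Mmp11* and *Apela* alone, as points per limb library with 95% Poisson counting intervals. *Msx1* was high in the *Lhx2* and *Lhx9* members (365 and 325 CPM), *Crabp1* in the *Mmp11* and *Apela* members (1233 and 1114 CPM), and *Lef1* lay above other mesenchyme in all 3 kinds of member.

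By list, 9 of 16 distal limb genes were higher in the *Lhx2* and *Lhx9* members and none was lower (median log2 difference 1.589, all genes -0.0054). They included *Hoxd13* (136 and 168 CPM against 51.8 and 34.4), *Hoxa13* (62.4 and 72.3 CPM against 23.4 and 20.4), *Wnt5a* and *Cyp26b1*. A *Hoxa13* or *Hoxd13* UMI was found in 64.1% and 71.1% of *Lhx2* and *Lhx9* members, in 29.6% and 27.3% of *Mmp11* and *Apela* members, and in 55.1% and 60.5% of the mixed members. Of 15 proximal and middle limb genes, 7 were higher in the *Mmp11* and *Apela* members and none was lower there (median -1.486), namely *Meis1*, *Meis2*, *Hoxa11*, *Hoxd8*, *Shox2*, *Irx3* and *Irx5*. *Shox2*, a homeobox gene of the proximal limb, had 98.5 and 151 CPM against 21.4 and 30.4.

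Of 12 dermal fibroblast genes, 6 were higher in the *Mmp11* and *Apela* members and none was lower (median -1.076). Beside *Crabp1* and *Twist2* these were *Col3a1*, *Thy1* and the small proteoglycan genes *Dcn* (1340 and 1733 CPM against 366 and 125) and *Lum* (954 and 1222 CPM against 196 and 146). Of 10 chondrocyte genes, 5 were higher in the *Lhx2* and *Lhx9* members (*Sox5*, *Sox6*, *Col11a1*, *Col9a1* and *Mia*), with a median of 1.105, although the summed level of this list in the *Lhx2* and *Lhx9* members was 1723 and 1541 CPM and lay near that of other mesenchyme, at 1647 and 2130 CPM. In the BMP list, the ligand genes *Bmp5* and *Gdf5*, the receptor gene *Bmpr1b* and the inhibitors *Bambi* and *Smad6* were higher in the *Lhx2* and *Lhx9* members, and the antagonist gene *Grem1* in the *Mmp11* and *Apela* members. The hedgehog receptor gene *Ptch1* (153 and 192 CPM against 71.5 and 77.2) and *Gli3* (526 and 582 CPM against 218 and 234), which answers hedgehog, were higher in the *Lhx2* and *Lhx9* members.

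The Wnt list held genes on both sides. *Wnt5a*, *Dkk2*, *Dkk3* and *Sfrp1* were higher in the *Lhx2* and *Lhx9* members, and the ligand genes *Wnt4* and *Wnt11*, the R-spondin genes *Rspo1* and *Rspo3* and the feedback genes *Nkd1* and *Apcdd1* in the *Mmp11* and *Apela* members. *Lef1* stood at 120 and 177 CPM in *Lhx2* and *Lhx9* members and at 158 and 92.8 CPM in *Mmp11* and *Apela* members, an order that turned between the limbs. *Axin2* stood at 50.1 and 55.2 CPM against 77.4 and 88.0. In both groups these genes lay above other mesenchyme, which stood at 33.3 and 34.9 CPM for *Lef1* and 27.7 and 31.0 CPM for *Axin2*.

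**Figure D5:**
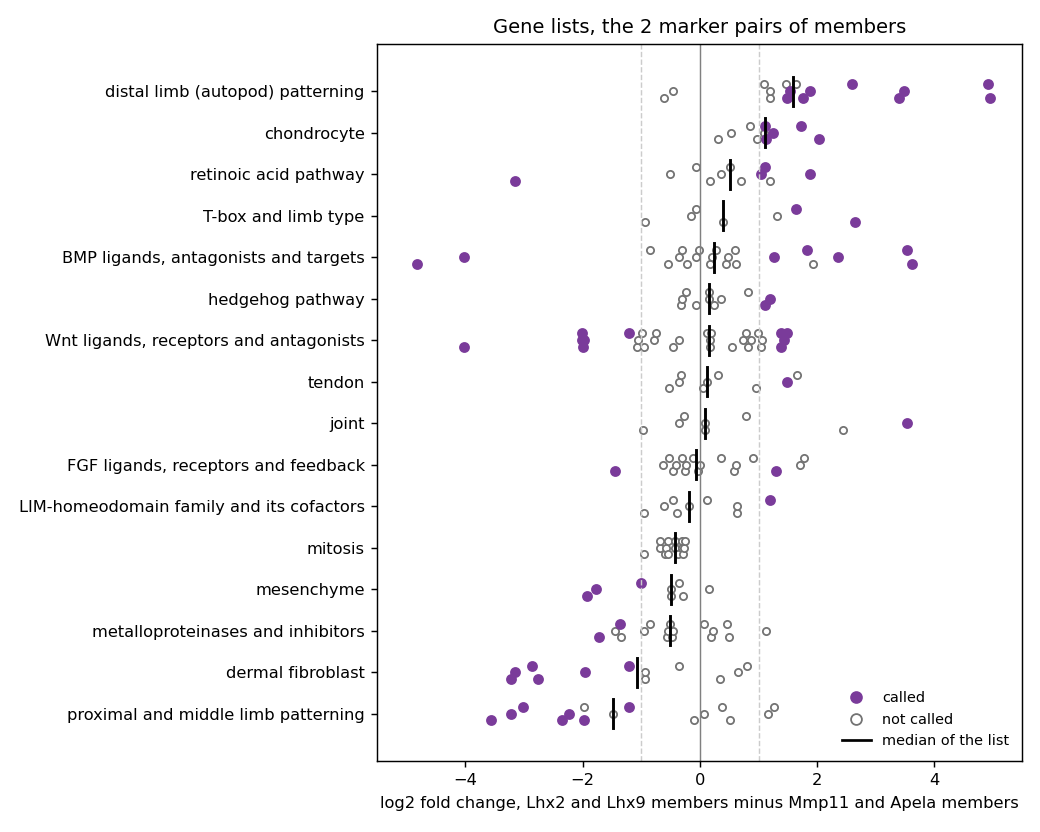
Log2 difference of *Lhx2* and *Lhx9* members minus *Mmp11* and *Apela* members (horizontal axis) for the genes of 16 lists (vertical axis), with filled points for called genes, open points for the rest and a black bar at each median. The distal limb list had its median at 1.589, the dermal fibroblast list at -1.076 and the proximal limb list at -1.486, and dashed lines stand at 1 and -1.

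The comparison with other mesenchyme was then repeated with 1 kind of member at a time, the remaining members left out of both classes, an alternative added after the data were seen. With members that had both LIM genes (243 and 214 cells), 156 genes were called higher (0.777%) and 360 lower (1.79%), *Msx1* by 3.18, *Msx2* by 3.66 and *Tfap2b* by 3.17 on the log2 scale among the higher ones, and *Cadps* stood at 0.85. With members that had *Mmp11* and *Apela* and no LIM gene (172 and 260 cells), 279 genes were called higher (1.39%) and 458 lower (2.29%). In this fit the spread was pooled over genes, and no gene kept an estimate of its own. *Msx1* was then lower, at -1.35, while *Msx2* at -1.06 (adjusted p = 0.268 by edgeR), *Tfap2b* at -0.11 and *Hoxd13* at -0.01 were not called, and *Cadps* was higher by 3.26. *Tfap2b* had 18.2 and 12.0 CPM in these members against 16.5 and 14.5 in other mesenchyme, which is above it in 1 limb and below it in the other. Some genes of the Wnt pathway were called higher with either kind of member, with *Lef1* at 2.03 and 1.79, *Axin2* at 1.29 and 1.47 and *Apcdd1* at 1.05 and 2.20. The higher level of *Msx1* given for all members therefore holds for members with both LIM genes and turned in those with *Mmp11* and *Apela* alone. *Msx2* and *Tfap2b* were called with the former and not with the latter.

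Shares of cells were also compared at an equal depth of 2000 UMIs. *Dach1* was then detected in 36.1% and 36.2% of members against 11.4% and 11.6% of other mesenchyme. *Twist1*, a mesenchymal transcription factor gene, was detected in 69.2% and 69.7% against 44.4% and 42.7%, *Sox11* in 53.2% and 56.6% against 28.3% and 34.8%, *Tmem132c* in 44.7% and 49.0% against 24.0% and 19.5%, and *Hdac9* in 44.2% and 49.4% against 22.8% and 22.4%. Genes detected in fewer members were *Dlk1*, a Notch-related growth regulator (36.5% and 36.7% against 66.5% and 64.4%), *Itm2a* (35.8% and 28.7% against 62.3% and 57.5%), *Mest* (39.3% and 36.4% against 62.2% and 61.6%), *Plagl1* (24.3% and 24.2% against 49.3% and 48.2%) and *Nrk* (19.4% and 15.7% against 44.0% and 39.1%). *Dlk1*, *Mest* and *Plagl1* are imprinted genes of fetal growth. Without thinning, *Dlk1* was detected in 58.1% and 62.2% of members against 76.4% and 78.2%.

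The same rule applied to penis cells found 95, 86 and 55 cells, or 1.54%, 1.35% and 1.09% of the *Prrx1* or *Pdgfra* cells of the 3 libraries, against 5.65% (95% Clopper-Pearson interval 5.28 to 6.03) in the forelimb and 6.41% (6.02 to 6.83) in the hindlimb. The rule was made for limb cells, so the difference of 4.70 percentage points is a description with no test, and tissue and age cannot be told apart in it. Most of these penis cells, 71, 68 and 45, had *Mmp11* and *Apela* alone. *Lhx2* and *Lhx9* were met together in 243 forelimb cells (1.63%) and 214 hindlimb cells (1.5%) and in 0 of 6152, 6377 and 5047 penis cells, for which the upper bounds were 0.0599%, 0.0578% and 0.0731%. Each gene was itself rare in penis cells without a *Cdh1*, *Cdh5* or *Myod1* UMI. *Lhx2* was met in 18, 13 and 11 of them and *Lhx9* in 65, 69 and 40. With so few cells, the absence of both together cannot be read as a lack of pairing. After thinning to 2000 UMIs the rule was met by 1.75% of forelimb, 1.55% of hindlimb and 0.0516%, 0.202% and 0.0920% of penis cells.

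Between the limbs, the members carried the genes that mark limb type. *Tbx5*, of the forelimb, had 100.3 CPM in forelimb and 4.23 in hindlimb members, *Tbx4*, of the hindlimb, 7.47 and 48.5 CPM, and *Pitx1*, also of the hindlimb, 0.387 and 55.7 CPM. Their counting intervals did not overlap. Other mesenchyme differed in the same direction. Its log2 ratio of CPM + 5 of forelimb to hindlimb was 2.985 for *Tbx5*, -2.036 for *Tbx4* and -3.909 for *Pitx1*, against 3.512, -2.101 and -3.493 in members. *Lhx9* was higher in forelimb members (95.2 CPM, interval 88.5 to 102, against 71.1, 65.7 to 76.7) and *Mmp11* in hindlimb members (175 CPM, interval 166 to 184, against 126, 118 to 134). The same log2 ratio was 0.103 for *Lhx9* and -0.246 for *Mmp11* in other mesenchyme, against 0.398 and -0.454 in members. *Mmp11* and *Apela* members were 20.4% of the forelimb and 28.4% of the hindlimb members. *Lhx2* and *Apela* had overlapping intervals. With 1 library a limb, these values have no replicate check, and the intervals cover counting error only.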

How the data were processed

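The tissues were dissociated, made into libraries with the 10X Genomics 3′ v3.1 kit and counted by the authors with Cell Ranger 7.0.0 against mm10, and what they deposited are unnormalized UMI counts for each gene in each barcode. The authors' later filters, normalization and integration are not part of these values. Whether introns were counted and the strand setting are not given in the sources used here. No barcode had fewer than 500 UMIs.

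The limits on genes and mitochondrial UMIs were those of the rule. Members, gene lists and comparisons were chosen with earlier results of these data known. Samples were grouped by the labels. Cells are not replicates, so their counts were added up within each library and class and compared with edgeR 4.0.16 in R 4.3.3: TMM scaling, filterByExpr, the quasi-likelihood test with the library as a block and p-values adjusted by Benjamini-Hochberg across every tested gene. Both classes of a library come from the same tissue, so the library pairs them by construction, and 1 residual degree of freedom was left. The SE was derived from the test, by dividing the size of the log2 fold change by the root of F. The genes of the rule were not tested, and 1 called list gene is not reported here. A gene was called at an adjusted p below 0.01 with a log2 fold change beyond 1 in size. Genes named were the 15 most higher and 10 most lower called genes with at least 20 CPM in the higher class of both libraries (10 and 5 among the distal cells, 15 and 15 between the marker pairs), called list members, and the 10 genes with the largest difference in thinned share. The most higher and most lower genes also had to differ in the same direction in both libraries. The comparison of the marker pairs, and its named genes, were chosen after the data were seen. A fold against 0 used a floor of 3 counts.

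Intervals are 95% exact Poisson or Clopper-Pearson intervals and cover counting error only. Thinned shares of genes are exact expectations at 2000 UMIs, thinned shares of the rule and of marker pairs come from a single random draw, and shallower cells were left out. Promoters were matched to RefSeq by symbol. Alternatives were DESeq2 1.42.0, no TMM, no filter on low counts, no block, other marker requirements, depth and complexity limits, no comparison cells with a Cdh1, Cdh5 or Myod1 UMI, and each limb alone. The edgeR script was also run on simulated counts, whose spread was taken from the fits to the real data. Python 3.11.15 with numpy 2.4.6, scipy 1.17.1 and pandas 2.3.3 was used for the rest.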

Additional observations from a re-analysis of the deposited data

Results flagged for a closer look

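In some genes the 2 limbs moved in opposite directions, each with counting intervals of both classes apart. With 1 library a limb, the difference between limbs was not tested. Among *Hoxa13* or *Hoxd13* cells, *Acta2* had a log2 ratio of CPM + 5 of members to other mesenchyme of -1.516 in the forelimb and 1.553 in the hindlimb.

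Between the *Lhx2* and *Lhx9* members and the *Mmp11* and *Apela* members, the same ratio was 0.847 in the forelimb and -1.307 in the hindlimb for *Thbs2*, 0.839 and -1.592 for *Kera*, both tendon genes, and 0.996 and -1.259 for the matrix gene *Mfap5*. It was 1.475 and -0.919 for *Tyrobp* and 1.204 and -1.191 for *Fcer1g*, both macrophage genes, -1.548 and 0.549 for the mitosis gene *Cenpf*, and 0.867 and -0.769 for the mast cell gene *Cma1*.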

How the results depend on the processing

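For members against other mesenchyme, the 172 higher and 419 lower genes were 113 and 230 with DESeq2 and 53 and 68 with no replicate block. Lower genes were 260 with 3 or more markers and 265 without comparison cells that had a *Cdh1*, *Cdh5* or *Myod1* UMI, and higher genes were 279 with *Mmp11* and *Apela* members alone. Among *Hoxa13* or *Hoxd13* cells, the 68 higher genes were 19 with no replicate block, 31 with 3 or more markers, 45 with both LIM genes and 169 with *Mmp11* and *Apela* alone. The 150 lower genes there were 60 with DESeq2, 288 with no filter, 9 with no replicate block, 24 with 3 or more markers, 61 with both LIM genes, 246 at 5000 or more UMIs and 97 without such cells. Between the marker pairs, the 186 and 243 calls were 77 and 99 with DESeq2. With 3 or more markers, the members with 2 markers entered the comparison class, while for both LIM genes and for *Mmp11* and *Apela* the remaining members entered neither class. Put into the comparison class, they gave 266 higher genes with *Mmp11* and *Apela* alone and, among distal cells, 157 higher with that kind and 41 higher and 72 lower with both LIM genes. The causes were not tested, apart from fewer cells or other cells entering.

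One library alone allows no test. Genes at 20 CPM past a fold of 2 in both libraries numbered 35 higher and 30 lower, and 57 to 60 and 51 to 58 in either library alone. Among distal cells they were 18 and 14, and 30 to 36 and 38 to 40 alone. Between the pairs they were 150 and 156, and 318 to 346 and 275 to 363 alone. The limb minus penis share of 4.70 points was 0.943 with 3 or more markers, 1.56 with both LIM genes and 1.53 at 2000 UMIs.

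With *Mmp11* and *Apela* members alone, *Msx1* was called lower at -1.35 and, among distal cells, at -2.00. Other genes called higher for all members stood below 0 without a call, so no turn of theirs is shown, at -1.06 for *Msx2*, -0.11 for *Tfap2b*, -0.21 for *Prr5l*, -0.012 for *Hoxd13* and -0.19 for *Cyp26b1*, and among distal cells at -1.42 for *Msx2*, -0.22 for *Tfap2a*, -0.63 for *Tfap2b* and -0.43 for *Tbx3*. *Dlx6* and *Dlx2* had no UMI there, so their fitted values of -8.76 and -7.39 depend on the prior count and are no fold. With the other members in the comparison class, which holds cells high in distal genes, these values were -1.69, -1.55, -0.45, -0.42, -0.15, -0.31 for the genes from *Msx1* to *Cyp26b1*, -0.009 for *Tfap2a*, -9.03 and -7.83 for *Dlx6* and *Dlx2*, and among distal cells -2.31 for *Msx1*, -1.92 for *Msx2*, -0.61 for *Tfap2a*, -0.98 for *Tfap2b*, -0.76 for *Tbx3* and -0.006 for *Dach1*. With both LIM genes *Casz1* stood at -0.15 and *Myh11* at -0.21, and at -0.36 and -0.34 with the other members in the comparison class. Without cells of a *Cdh1*, *Cdh5* or *Myod1* UMI, *Aplnr* lost its call, at -0.29, and without a call *Cd93* stood at 1.26 among all and 0.90 among distal cells and *Esam* at 0.31. Under the alternatives run, no other called gene of the names and lists changed sign.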
